A study of Drosophila melanogaster with 2 samples.

Results

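The bab locus of Drosophila melanogaster holds bab1 and bab2, neighbouring genes that both encode transcription factors with a BTB domain. It was examined for peaks of Bab2, the protein made by one of its own genes. Peaks were taken from 4 deposited dm6 lists when their summit lay on 3L from 20 kb beyond the outer end of bab1 to 20 kb beyond the outer end of bab2, that is between 1016369 and 1197276, a stretch of 180.9 kb. The optimal list, which holds the peaks that passed the reproducibility threshold (IDR), had 10 such peaks of 4720. The relaxed lists, which hold peaks and background, had 79 of 24109 from the pooled reads, 69 of 27372 from replicate 2 and 81 of 25804 from replicate 3.

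The measurement was ChIP-seq on whole embryos of both sexes, 0 to 24 h old, from a transgenic fly line that stably expresses Bab2 with eGFP at its C-terminus. An antibody against GFP was used, and the chromatin was sonicated, with a fragment size range of 200 to 800 bp. There was 1 group, with 2 libraries that the labels number as biological replicates 2 and 3 and that came from separate biosamples. No other genotype, treatment or untagged line was analysed here, so values were described and no groups were compared. Both libraries carried the same transgene, and the sources used here do not say how much sequence around bab2 it contains. Reads from the transgene and from the chromosomal copy of the same sequence therefore cannot be told apart. They do not give read depth either, and whole embryos mix cells that express bab2 with cells that do not.

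Bab1 and Bab2 bind DNA through a conserved domain related to that of Pipsqueak, and they are known to repress pigmentation genes. The genes arose by duplication, have partly overlapping roles, and are known for their part in leg segmentation, in the terminal filaments of the ovary and in the sex-specific pigmentation of the abdomen. Both are controlled by enhancers at a distance. An abdominal enhancer with different output in males and females lies in the large intron of bab1, and a leg and antenna enhancer lies between the genes. The files used here do not mark these enhancers, so no peak was assigned to one.

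Both genes are transcribed from the minus strand. bab1 (FBgn0004870) spans 1036369 to 1101089 on 3L (dm6), and 58.7 kb of its 64.7 kb are its first intron. bab2 (FBgn0025525) spans 1140429 to 1177276, or 36.8 kb, with a second intron of 28.8 kb. The genes are separated by 39.3 kb, with the start site of bab1 facing the 3' end of bab2.

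The 7 optimal summits that lay in bab1, in bab2 or between them are shown with 50 bases on either side, since they are the sites on which the description of the locus rests. Each is the plus strand of the RefSeq release 6 assembly (dm6 coordinates), 5′ to 3′, and the capitals mark the summit base with 5 bases on either side.

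Beyond the 3' end of bab2, 3L:1139507-1139607: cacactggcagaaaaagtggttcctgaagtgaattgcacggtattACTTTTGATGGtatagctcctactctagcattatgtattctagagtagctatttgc
bab2 intron 2, 3L:1167051-1167151: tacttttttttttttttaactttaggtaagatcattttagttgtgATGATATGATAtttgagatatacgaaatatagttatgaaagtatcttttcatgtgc
bab2 intron 2, 3L:1166388-1166488: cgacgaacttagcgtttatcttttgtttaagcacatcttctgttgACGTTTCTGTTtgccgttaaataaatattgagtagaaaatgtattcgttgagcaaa
bab2 intron 2, 3L:1151698-1151798: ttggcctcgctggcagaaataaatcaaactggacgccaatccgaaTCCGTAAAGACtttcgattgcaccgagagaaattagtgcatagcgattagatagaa
bab2 intron 2, 3L:1152846-1152946: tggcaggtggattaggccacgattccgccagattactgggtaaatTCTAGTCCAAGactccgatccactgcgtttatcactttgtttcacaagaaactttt
bab1 intron 1, 3L:1097102-1097202: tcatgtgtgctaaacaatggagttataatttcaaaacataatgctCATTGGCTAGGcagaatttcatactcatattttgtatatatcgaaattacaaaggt
bab1 intron 1, 3L:1086358-1086458: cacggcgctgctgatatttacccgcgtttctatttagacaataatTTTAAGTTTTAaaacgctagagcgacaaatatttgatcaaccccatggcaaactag

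The start sites of both genes are shown in the same way from the minus strand, because they held no optimal summit. Here the capitals mark the start base with 5 bases on either side.

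bab1 start site, 3L:1101039-1101139: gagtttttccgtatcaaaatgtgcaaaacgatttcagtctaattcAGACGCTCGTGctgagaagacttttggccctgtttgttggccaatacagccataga
bab2 start site, 3L:1177226-1177326: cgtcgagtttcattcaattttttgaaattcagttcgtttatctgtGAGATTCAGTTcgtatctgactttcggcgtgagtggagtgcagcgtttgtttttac

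The strongest Bab2 peak of the locus lay just past the end of bab2 (1139345 to 1139768, summit 1139557). It was intergenic, 872 bp beyond the 3' end of bab2 and 38468 bp upstream of the start site of bab1. Its signal, the authors' enrichment value per peak from pooled reads, was 269, and it ranked 680th of 4720 in the optimal list, 14.4% from the top. The replicates ranked it alike, at 554 of 27372 in replicate 2 with a signal of 133.0 and at 843 of 25804 in replicate 3 with a signal of 132.8. Signals were ranked within a list only, because the sources used here do not state how each list was scaled.

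The next peaks by signal formed a close pair in the second intron of bab2. Their summits, 1167101 and 1166438, were 663 bp apart and lay 10175 and 10838 bp downstream of the bab2 start site. The signals were 228 at summit 1167101 and 216 at summit 1166438, at ranks 909 and 997 of the optimal list. Summit 1167101 had a signal of 101.7 at rank 927 in replicate 2 and of 127 at rank 931 in replicate 3. Summit 1166438 had a signal of 80.8 at rank 1372 in replicate 2 and of 123 at rank 983 in replicate 3. These 3 peaks were the only ones of the locus in the strongest 25% of the optimal list. With the gap of 663 bp, 2 of the 10 optimal summits had another optimal summit within 1 kb, against 853 of 4720 (18.1%) over the whole list.

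A second, weaker pair lay further into the same intron of bab2. Summits 1152896 and 1151748 were 1148 bp apart and lay 24380 and 25528 bp downstream of the start site. Their signals of 98.2 and 106 put them at ranks 3412 and 3079 of the optimal list. Summit 1152896 had a signal of 51.2 at rank 2856 in replicate 2 and of 59.1 at rank 3042 in replicate 3. Summit 1151748 had a signal of 41.2 at rank 3928 in replicate 2 and of 68.3 at rank 2502 in replicate 3, so the order of the pair differed between the replicates. All 4 optimal peaks inside bab2 were thus in its second intron, and none lay in an exon or in its other introns.

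The first intron of bab1 held 2 optimal peaks. Summit 1097152 lay 3937 bp downstream of the bab1 start site, with a signal of 110 and rank 2891. Its signal was 35.0 at rank 5041 in replicate 2 and 77.6 at rank 2050 in replicate 3, so it was among the 4720 strongest peaks of replicate 3 only. Summit 1086408 lay 14681 bp downstream, with a signal of 84.9 and rank 4078, the lowest of the 10. Its signal was 42.3 at rank 3797 in replicate 2 and 42.9 at rank 4566 in replicate 3. It was also the single optimal peak of the locus below the ceiling of the deposited −log10 (q-value), at 3.43 where the other 9 had 3.90.

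The remaining 3 optimal peaks lay in the flanks, nearer to other genes. Summits 1032769 (signal 135, rank 2164) and 1031144 (signal 95.8, rank 3526) lay in an intron of trio, a gene of axon guidance. Their nearest start site was that of CG9205, at 1928 and 3553 bp. Summit 1032769 had signals of 65.6 in replicate 2 and 74.0 in replicate 3, and summit 1031144 had 39.7 in replicate 2 and 59.8 in replicate 3. Summit 1196010 (signal 111, rank 2858) lay 307 bp upstream of the start site of Aplip1, a kinesin adaptor and JNK scaffold gene. It had the widest gap between replicates of the 10, with a signal of 26.6 at rank 7496 in replicate 2 and of 81.2 at rank 1918 in replicate 3. Outside the 20 kb limits, the nearest optimal summits were 8421 bp past the limit on the bab1 side (signal 149) and 7853 bp past it on the bab2 side (signal 109). Just inside, summit 1031144 lay 14775 bp from the limit on the bab1 side, and summit 1196010 lay 1266 bp from it on the bab2 side.

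**Figure D1:**
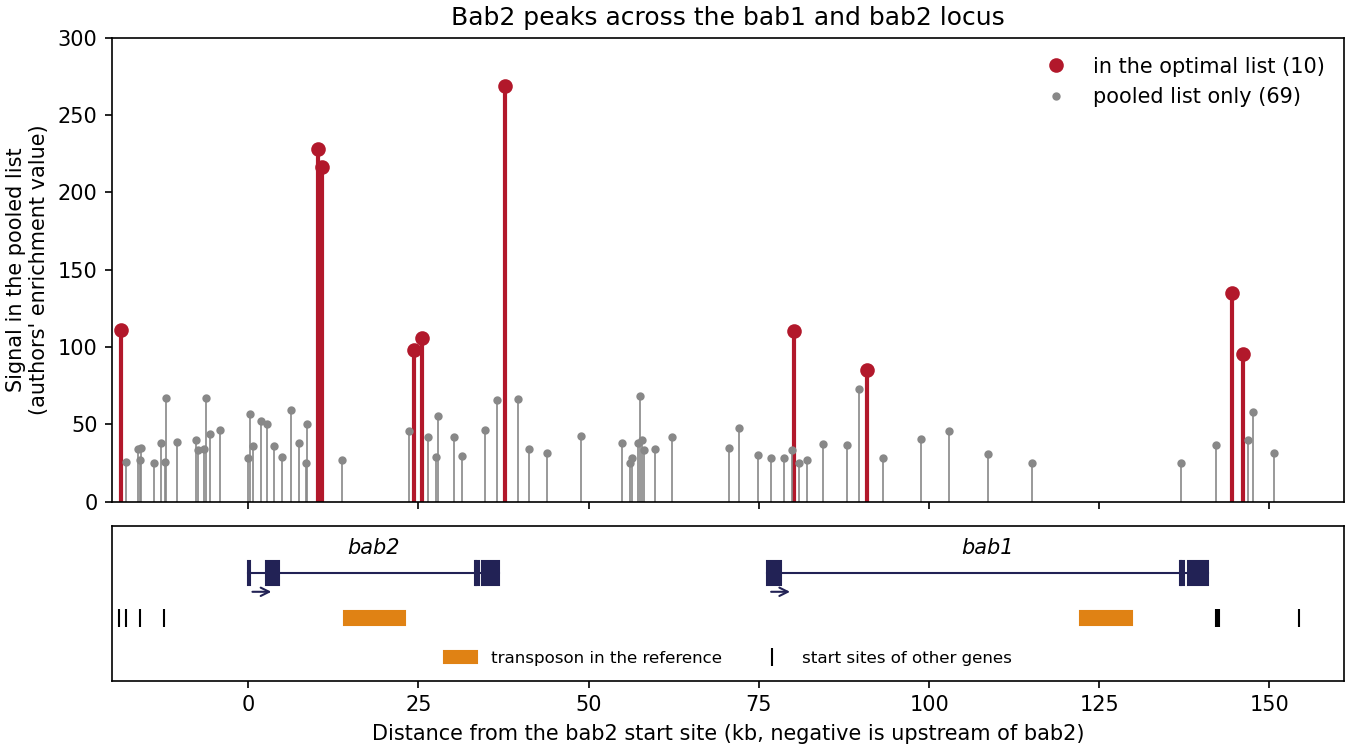
Upper panel: signal of each pooled peak (authors' enrichment value, y axis) against the distance of its summit from the bab2 start site (kb, negative is upstream). Large red points are the 10 peaks of the optimal list and small grey points the other 69. Lower panel: exons of bab1 and bab2 (boxes), the direction of transcription (arrows), annotated transposons over 1 kb (orange) and start sites of other genes (ticks). The tallest peak, with a signal of 269, stands just past the 3' end of bab2, and no red point stands at the start of either gene.

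All 10 optimal peaks had a summit of both replicate lists within 200 bp (99.6% of all 4720 did), which the selection of the optimal list for reproducibility largely fixed. Their distances to the matching summit ran from 0 to 77 bp in replicate 2 and from 0 to 40 bp in replicate 3. Among the 4720 strongest peaks of each replicate, 8 of the 10 were found in replicate 2 (87.8% of all optimal peaks were) and 10 in replicate 3 (90.5% of all were). The missing 2 in replicate 2 were the peak 3937 bp inside bab1 and the one upstream of Aplip1. The strongest replicate 2 peaks in the locus numbered 10, and those of replicate 3 numbered 13. In replicate 2, the 2 peaks outside the optimal list were summit 1153691 in the second intron of bab2 (rank 4087) and summit 1177011 near the bab2 start site (rank 4122). In replicate 3, the 3 outside it were summits 1087540 in bab1 (rank 3688), 1183565 upstream of bab2 (rank 4134) and 1119942 between the genes (rank 4697).

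**Figure D2:**
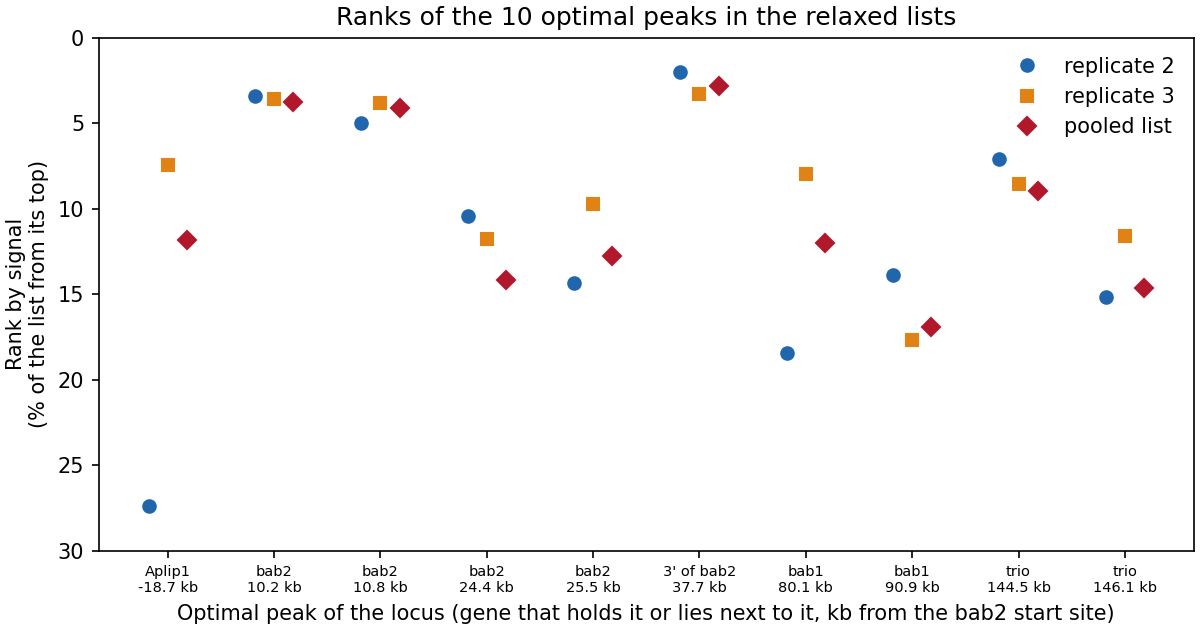
Rank of the 10 optimal peaks by signal in the replicate 2, replicate 3 and pooled lists, as a percentage of each list from its top (y axis, strongest at the top). Peaks are ordered along the x axis from the upstream side of bab2 to the trio side. The 3 highest peaks lie within the top 5.01% of every relaxed list, and the peak next to Aplip1 spans 7.43% (replicate 3) to 27.4% (replicate 2).

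By position, 8 of the 10 optimal summits were intronic, 1 was intergenic and 1 lay at a promoter, defined as within 500 bp of a protein-coding start site. None lay in an exon away from a promoter, which allows a share of up to 30.8% (Clopper-Pearson 95% interval). The promoter share of 10% (Clopper-Pearson 95% interval 0.253% to 44.5%) stood beside 46.4% of all optimal summits. For introns the share was 80% (44.4% to 97.5%), beside 36.1% of the whole list. The intervals cover counting error only. The share of bases in each class was not counted, and the stretch of 180.9 kb was chosen around bab1 and bab2, with introns of 58.7 kb and 28.8 kb. In the pooled list, 10 of the 79 summits of the locus (12.7%) were at a promoter, against 29.5% of all, and 38 (48.1%) were intronic, against 38.5%. Intergenic summits made up 30.4% in the locus and 19.9% in the whole list, and exonic ones 8.86% and 12.1%.

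Neither bab gene had an optimal summit at its start. The optimal summit nearest to the bab2 start site was the one 10175 bp downstream, and the one nearest to that of bab1 was 3937 bp downstream. The relaxed lists, which also hold background, did have summits at bab2. A pooled summit lay 27 bp downstream of its start (signal 28.4, rank 19053 of 24109), with a −log10 (q-value) of only 0.0986. Another lay 272 bp downstream (signal 57.0, rank 6810), with a −log10 (q-value) of 1.49. Both were in the first exon of bab2. Replicate 2 had summits at 21 bp (rank 11320) and 265 bp (rank 4122), and replicate 3 had one at 320 bp (rank 7997). Their −log10 (q-values) were 0.456, 2.80 and 1.20 in that order. At bab1 the pooled list had its nearest summit 576 bp downstream of the start (signal 28.5, rank 18847), outside the promoter window. Replicate 3 alone had a bab1 summit inside that window, 112 bp upstream (rank 17515 of 25804). The −log10 (q-value) was 0.103 for this pooled bab1 summit and 0.172 for that of replicate 3. In each relaxed list the strongest summit within 500 bp of the bab2 start thus ranked above the summits listed here for bab1. In the pooled list the weaker of the bab2 summits ranked just below the one nearest to bab1.

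Of the 8 protein-coding genes with a start site in the locus, 1 (Aplip1) had an optimal summit at its promoter. Over all 13945 protein-coding genes, 2797 (20.1%) did. The others were trio, CG9205, bab1, bab2, CG13912, the neuronal tryptophan hydroxylase gene Trhn and the lysozyme gene LysX. In the pooled list, 7 of the 8 had a summit in the window, against 47% of all protein-coding genes. The count was 6 of 8 in replicate 2, against 48.3% of all, and 8 of 8 in replicate 3, against 47.4% of all. In each relaxed list the same summit counted for both trio and CG9205, whose start sites lie close together. Some of these summits were weak calls, such as the pooled one at LysX (rank 22576, −log10 (q-value) 0.0373).

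Relaxed peaks lay more densely in the locus as a whole than over all arms, though not in every part of it. The relaxed lists hold background too, so these are densities of calls and not of bound sites. Of the 79 pooled peaks of the locus, 9 reached the −log10 (q-value) ceiling of 3.90, and the lowest value was 0.0190. The pooled list had 43.7 summits per 100 kb there (79 summits, exact Poisson 95% interval 34.6 to 54.4), against 18.01 per 100 kb over all arms, a ratio of 2.42 (1.92 to 3.02). Replicate 2 had 38.1 per 100 kb in the locus and 20.4 over all arms. Replicate 3 had 44.8 in the locus and 19.3 over all arms. The optimal list had 5.53 per 100 kb (10 summits, 2.65 to 10.2), against 3.53 over all arms, a value inside that interval. The intervals treat summits as independent counts and give no spread between animals.

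These peaks were spread over all strengths. Of the 79 pooled peaks of the locus, 16 ranked in the strongest 25% of the list, 26 in the next 25%, 19 in the 25% after that and 18 in the weakest 25%. Their median signal was 38.0, against 37.6 in the whole list. In the optimal list, the median signal was 111 in the locus and 128 overall. Of the pooled peaks of the locus, 10 of 79 (12.7%, Clopper-Pearson 95% interval 6.24% to 22.0%) were kept in the optimal list, against 19.6% of all pooled peaks. The optimal list held the 4720 strongest pooled peaks, so this share restates ranks by signal and is no separate measure of reproducibility. Replicate 2 peaks of the locus had a replicate 3 summit within 200 bp in 43 of 69 cases (62.3%), against 52.4% of the whole list. The opposite match held for 44 of 81 replicate 3 peaks (54.3%), against 55.2%. Each of the 79 pooled peaks of the locus was found in at least 1 replicate list, as were 96.9% of all pooled peaks. Both replicate lists held 46 of the 79 (58.2%), against 59.0% of all pooled peaks.

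In the pooled list the density was uneven along the locus and highest in bab2 and upstream of it. bab2 itself had 24 pooled summits, or 65.1 per 100 kb (41.7 to 96.9), and the 20 kb upstream of it had 16, or 80.0 per 100 kb (45.7 to 130). The stretch between the genes had 17, or 43.2 per 100 kb (25.2 to 69.2). bab1 had 16, or 24.7 per 100 kb (14.1 to 40.1), and the 20 kb beyond its 3' end had 6, or 30 per 100 kb (11.0 to 65.3). The intervals of bab1 and of the flank beyond it include the 18.01 per 100 kb of all arms. In replicate 2 the values per 100 kb were 54.3 in bab2, 40 upstream of it, 33.0 between the genes, 30.9 in bab1 and 40 beyond the 3' end of bab1, so both flanks had the same density. In replicate 3 they were 70.6 in bab2, 65 upstream of it, 48.3 between the genes, 24.7 in bab1 and 35 beyond the 3' end of bab1. Both replicates thus had more summits per length in bab2 than in bab1. In replicate 2 the intervals of bab2 (33.2 to 83.8) and bab1 (18.9 to 47.7) overlapped. In replicate 3 those of bab2 (46.1 to 103) and bab1 (14.1 to 40.1) did not. For the flank upstream of bab2 the intervals of the replicates overlapped (17.3 to 78.8 in replicate 2 and 34.6 to 111 in replicate 3). The large introns had 55.5 pooled summits per 100 kb in bab2 (second intron) and 23.8 in bab1 (first intron). They make up most of each gene and hold 16 of the 24 pooled summits of bab2 and 14 of the 16 of bab1. Their order thus largely counts the same summits again. Whether a second copy of bab2 sequence in the transgene bears on these densities was not tested.

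Counts in fixed windows of 20 kb placed the dense stretch. From the bab1 side to the bab2 side, the 9 windows centred in the locus had 6, 1, 4, 10, 9, 9, 10, 14 and 18 pooled summits. The last and highest window lay upstream of bab2. It ran from 1180001 to 1200000, past the end of the locus at 1197276. Its 18 pooled summits compare with 16 in the 20 kb flank upstream of bab2, and its 10 of replicate 2 with 8. The replicates did not share that maximum: replicate 2 had its highest count, 13, in the window over the 5' part of bab1, and replicate 3 had its highest, 16, in the window over the 5' part of bab2. The next window outside, on the bab2 side, had 8, and the 12 others within 6 or 7 windows of the locus had 0 to 9. Windows with 10 or more summits, a limit chosen after the counts were seen, were 4 of 9 in the pooled list. They were 3 of 9 in replicate 2 and 4 of 9 in replicate 3. In replicate 2 the last window reached 10 only with summits past the end of the locus. Over all arms, 6.35% of windows had 10 or more in the pooled list, 9.52% in replicate 2 and 6.9% in replicate 3.

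**Figure D3:**
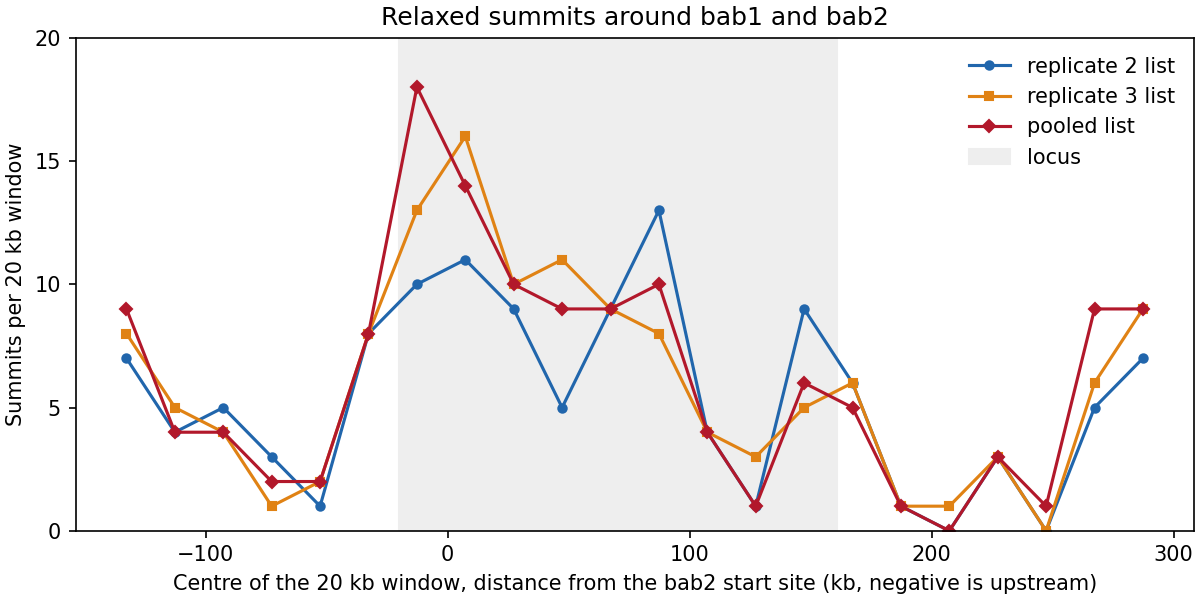
Number of relaxed summits in fixed 20 kb windows (y axis) against the distance of the window centre from the bab2 start site (kb, negative is upstream), for the replicate 2, replicate 3 and pooled lists. The shaded band is the locus, and the window upstream of bab2 runs past its end. In the pooled list the counts are highest in the window upstream of bab2 (18) and in the one over its 5' part (14), and the lowest count inside the band is 1.

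Annotated transposons interrupted the locus. A 412 element of 7666 bp lies in the first intron of bab1 and a roo element of 9093 bp in the second intron of bab2, and neither held a summit in any of the 4 lists. Over all arms, annotated transposons cover 5.93% of the sequence and held 0.510% of pooled summits. With transposon sequence left out of the lengths, bab2 had 86.5 pooled summits per 100 kb and bab1 had 28.0.

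The locus had 68 pooled peaks more than 200 bp from an optimal summit. Of these, 32 (47.1%, Clopper-Pearson 95% interval 34.8% to 59.6%) ranked in the strongest 50% of the pooled list, against 37.6% of all such peaks. As the optimal list was the top of the pooled list by signal, this share largely counts the same ranks again. Of the 32 peaks, 24 were found in both replicates (75%, 56.6% to 88.5%), against 84.7% of all peaks so chosen. bab2 held 12 of the 32, the stretch between the genes 8, the flank upstream of bab2 7, bab1 3 and the flank beyond bab1 2. The strongest was summit 1087533 in the first intron of bab1 (signal 72.6, rank 5008), 1125 bp from the weakest optimal peak. It was followed by summit 1119804 between the genes (signal 68.1, rank 5461) and summits 1183530 and 1189324 upstream of bab2 (signal 66.9 each). Summit 1137711, 1846 bp from the strongest peak of the locus, had a signal of 66.3, and summit 1140730, in the 3' UTR of bab2, had 65.6. The weakest peak of the whole optimal list had a signal of 76.1.

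The sequence at the 10 optimal summits had a median GC content of 39.1% (22.8% to 47.5%) in windows of 101 bp, against 34.7% for all 4720 optimal windows and 33.7% for the 2530 outside promoters. The lowest value was that of summit 1167101 in bab2, whose printed window holds a run of T near its start. Motifs were searched in these windows on both strands. GAGAG, the core of the GAGA factor site, was in 1 of 10 windows, starting 19 bp past summit 1151748 in bab2, and in 10% of all optimal windows. TAATAA was in 0 of 10 and in 15.5% of all, and the homeodomain core TAATTA was in 0 of 10 and in 7.44% of all. TAATAA and TAATTA share their first letters and can overlap. The DREF site TATCGATA was in 0 of 10, in 1.99% of all and in 0.119% of the optimal windows outside promoters. The Zelda site CAGGTAG was in 0 of 10 and in 0.445% of all, and the E-box CACGTG was in 0 of 10 and in 1.04% of all. TTTATGG was in 0 of 10 and in 2.67% of all, while ACAATGT was in 0 of 10 and in 1.82% of all. An absent match says only that these letters are not in these windows.

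For scale, the locus was set beside 10 other loci of neighbouring paralogous transcription factor genes with the same 20 kb flanks. In pooled summits per 100 kb, the bab locus ranked 1st of the 11 loci with 43.7, and the others ran from 10.9 (the gap gene kni with knrl) to 37.6 (Doc1 and Doc3, T-box genes), with a median of 18.3. In the optimal list it ranked 3rd with 5.53, after Doc1 and Doc3 (12.5) and the pair-rule genes slp1 and slp2 (9.34). The median of the others was 2.42. The bab value rests on 10 summits in 180.9 kb, that of Doc on 10 in 79.8 kb and that of slp on 5 in 53.5 kb. The flanks of 20 kb thus make up more of these shorter loci. The interval of the bab value, 2.65 to 10.2, includes the slp value. In the share of pooled peaks kept in the optimal list, which restates ranks by signal, it ranked 8th, at 12.7% against a median of 15.7%. The start sites of the paired genes held no optimal summit in any of the other 10 loci either, beside 20.1% of all protein-coding genes that had one. At start sites of other genes, these loci had 0 to 4 optimal summits each. These ranks are a description, with no test of a difference. Of the 11 loci, only that of bab holds the gene carried by the transgene of both libraries. Whether this bears on its ranks was not tested.

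**Figure D4:**
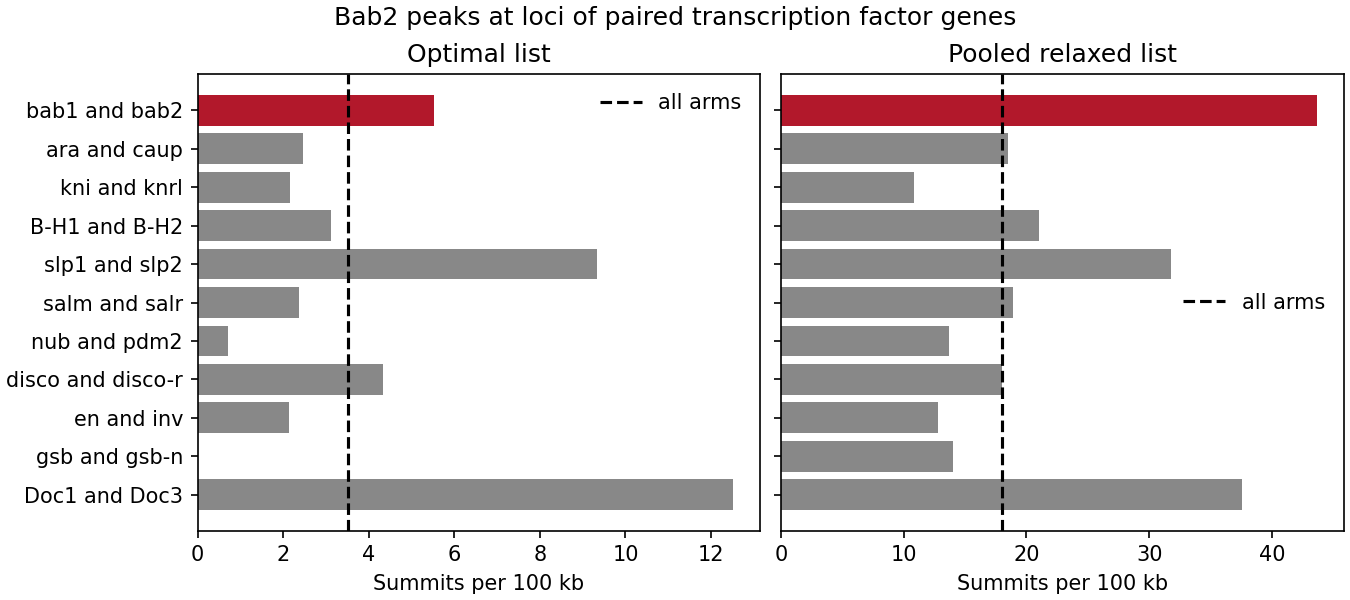
Summits per 100 kb (x axes) in the optimal list (left) and the pooled relaxed list (right) at the bab locus (red, top) and at 10 other loci of paired transcription factor genes (grey), each with 20 kb on either side. Dashed lines mark the value over all arms, 3.53 for the optimal and 18.01 for the pooled list. The bab locus has the longest bar on the right (43.7) and the third longest on the left (5.53).

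Among genes known to act upstream of bab1 or bab2 or with them in the leg and abdomen, 1 of 14 had an optimal summit at a promoter. This was bowl, which encodes a zinc finger factor of the distal leg (signal 374, 310 bp upstream of a start site). The other 13 were Dll, dac, al, Lim1, C15, B-H1, B-H2, ss, rn, dsx, Abd-B, exd and hth. Of the pigmentation enzyme and cuticle genes y, e, t, Ddc and ple, 0 of 5 had one. Both counts stand beside the 20.1% of all protein-coding genes.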

How the data were processed

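Each dm6 list was in narrowPeak format. The replicate and pooled lists were called against a control, and the optimal list was derived from all 3, per the deposited README files. The sources used here name no aligner, peak caller or read depth. The values used were the signal per peak deposited by the authors, the deposited −log10 (q-value) and the deposited summit offset. Every optimal peak was in the pooled list with the same signal, and the optimal list held the 4720 strongest pooled peaks. The dm3 lists were not used here.

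Genes came from the Ensembl 115 annotation (protein-coding genes of the 6 large arms), and bases from the RefSeq release 6 assembly. Summits were classed in the order promoter (500 bp), exon, intron, intergenic. Lists were matched by summits within 200 bp. Ranks are by signal, 1 being the strongest. With 1 group of 2 replicates, no test was run. Every optimal peak of the locus was described. Pooled peaks away from optimal summits and in the strongest 50% of the pooled list were counted by interval, and only the strongest of them were named. The members and gene lists were chosen with earlier results of these data known, and the windows, pooled ratios and transposon counts after the counts were seen. Functions were tested on simulated summits. Computation used scipy 1.17.1, pandas 2.3.3 and numpy 2.4.6 under Python 3.11.15, with plots from matplotlib 3.10.9. Alternatives changed the flanks, the promoter window, the match, the list and the replicate used.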

Additional observations from a re-analysis of the deposited data

How the results depend on the processing

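Of 35 values under other settings, 26 stayed close to the reported one, which meant within 1.5 times for a count and inside the 95% interval for a share, a density or a ratio. With only the 2360 strongest peaks of the optimal list, the locus had 4 optimal peaks (2.21 per 100 kb), all 4 found in both replicates, 0 at a promoter, and 5.06% of its pooled peaks kept. The number of promoter peaks, 1, was 0 with 10 kb flanks or a window of 250 bp and 3 with 50 kb flanks. With 1 replicate left out, the relaxed density over that of all arms was 1.87 without replicate 3 and 2.32 without replicate 2. A count of matches in both replicates cannot be had from 1 replicate, so it has no value there. The ratio was between 2.19 and 2.58 with the other flanks, without transposons and in the strongest 50% of the pooled list. With 10 optimal peaks, shares carry wide intervals, and depth could not be judged from the lists. The cause of these changes was not tested, beyond the fewer peaks that the shorter list and smaller windows leave.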
